A study of Macaca mulatta with 10 samples.

Results

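The Hedgehog pathway genes described here are DHH, PTCH1, HHIP, GAS1, BOC, SMO, GLI1, GLI2 and GLI3. They were taken from the series' table of read counts as the rows whose name equals one of these symbols. All 9 genes had a row, 1 each, among the 26813 loci of that table, and none fell below its cut-off. The counts come from whole testes of 10 juvenile, wild type male rhesus macaques (Macaca mulatta), 1 library per animal, made from total RNA of the right testis. Every animal received a pulsatile infusion, with vehicle or with gonadotropin, which here means follicle-stimulating hormone (FSH, received by Sertoli cells) together with luteinizing hormone (LH, received by Leydig cells). Vehicle was given to 3 animals (TP07, TP09 and TP11, aged 24, 14 and 15 months). Gonadotropin was given for 48 h to 3 animals (TP08, TP10 and TP12, aged 22, 14 and 15 months) and for 96 h to 4 animals (TP15, TP16, TP17 and TP18, all aged 14 months). The labels do not say for how long each vehicle animal was infused. The animals of the 96 h group carry the highest numbers, so any batch that follows the animal number cannot be told apart from that group.

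Hedgehog signalling begins when a secreted ligand binds the receptor Patched (PTCH1), which otherwise holds back the transducer Smoothened (SMO). Released SMO acts at the primary cilium and turns the GLI transcription factors from repressing to activating forms. PTCH1, HHIP and GLI1 are themselves transcribed in responding cells of many tissues, so that the pathway feeds back on its own receptor and inhibitor. In the testis the ligand is Desert hedgehog (DHH), made by Sertoli cells inside the tubules. The cells that answer lie outside them, among fetal and adult Leydig cell precursors, interstitial fibroblasts and peritubular myoid cells, and loss of DHH in mice disturbs Leydig cells and the tubule wall.

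Library totals ran from 21824233 to 30375928 counts, and each member had between 165 and 3233 counts in every library. A floor of 3 counts corresponds to 0.099 to 0.137 CPM (the usual scaling of a locus's counts to a library of fixed size), which covers counting error only, so depth did not limit whether a member was seen. Testis markers were present. Summed over 12 Sertoli genes, SOX9 and AMH among them, the level was 2839 to 3456 CPM in vehicle, 3045 to 3682 at 48 h and 2804 to 3320 at 96 h. Summed over 8 Leydig genes it was 236.7 to 379.7, 1776 to 2208 and 1321 to 1647 CPM, and 9 measured germ cell genes summed to 435.6 to 450.8, 234.9 to 285.7 and 228.6 to 290.5 CPM. In whole tissue, fewer cells of a type and less RNA per cell cannot be told apart, here and in every level below. Levels are CPM after scaling of the libraries by the TMM method, tests are edgeR's quasi-likelihood test with Benjamini-Hochberg adjustment over all 26813 loci, and a gene is called higher or lower at an adjusted p below 0.05.

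DHH and HHIP were higher than in vehicle at both times, and PTCH1 passed the test at 96 h. Of the 9 genes, 2 were called higher and 0 lower at 48 h, where 8.53% of all loci were called higher and 3.67% lower. At 96 h 3 were called higher and 0 lower, beside 10.6% and 6.89% of all loci. Between 96 h and 48 h none passed edgeR's test, where 0.817% of loci were called higher and 0.25% lower. Many loci have no gene name, so the 16923 loci with 1 symbol are a closer background for named genes. Of these, 12.3% were called higher and 3.25% lower at 48 h, 14.6% and 6.7% at 96 h, and 1.01% and 0.355% between 96 h and 48 h. At an unadjusted p below 0.05 that last comparison had 2 members higher and 1 lower, and DESeq2 and edgeR's exactTest called 0 of them either. The median log2 fold change of the 9 genes was 0.34 at 48 h and 0.59 at 96 h, against -0.07 and -0.01 over all loci and 0.04 and 0.05 over loci with 1 symbol. The 2 comparisons share the vehicle animals.

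**Figure D1:**
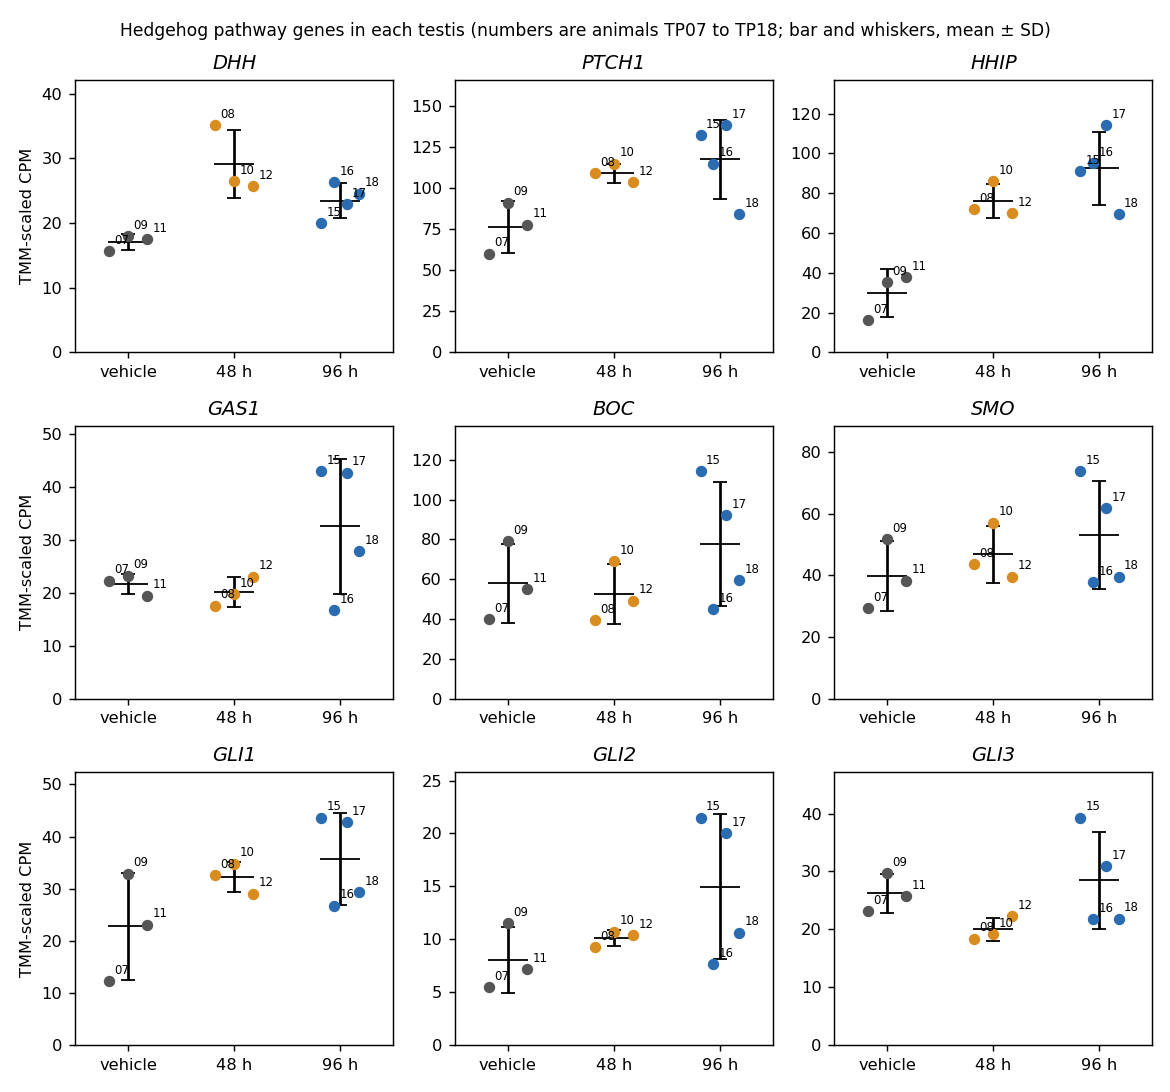
Level of each Hedgehog pathway gene in each testis, as TMM-scaled CPM (vertical axis, from 0) by group (horizontal axis: vehicle, 48 h, 96 h). Points are animals, labelled with their number, and bars and whiskers are mean ± SD. HHIP shows the widest gap, with every vehicle animal at or below 38.0 CPM and every gonadotropin animal at or above 69.5 CPM, while at 96 h most genes are highest in TP15 and TP17.

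DHH, the ligand, lies on chromosome 11 from 47378020 to 47384399 (exon limits of the deposited transcript models on rheMac8, minus strand). The other Hedgehog ligands, SHH and IHH, were not analysed here. DHH was at 15.7, 17.96 and 17.6 CPM in the vehicle animals TP07, TP09 and TP11, at 35.1, 26.6 and 25.7 CPM in the 48 h animals TP08, TP10 and TP12, and at 19.99, 26.4, 23.0 and 24.6 CPM in the 96 h animals TP15 to TP18. Every gonadotropin animal was above every vehicle animal. Libraries of the groups failed to overlap in the higher direction at 18.1% of all loci at 48 h and 15.9% at 96 h. At 48 h the mean was 29.1 ± 5.22 CPM against 17.1 ± 1.22 CPM (SD, n = 3 each). On the log2 scale the fold change was 0.77 ± 0.15 (SE, edgeR adjusted p = 0.00814). At 96 h the mean was 23.5 ± 2.71 CPM (n = 4). The log2 fold change against vehicle was then 0.46 ± 0.14 (edgeR adjusted p = 0.0459).

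The 48 h animal TP08, at 22 months one of the oldest animals, had the highest DHH level. Without TP07 and TP08, the animals over 20 months, the 48 h log2 fold change was 0.56 (edgeR adjusted p = 0.0976). The 96 h call stood close to the threshold and was lost in 17 of 23 alternatives, exactTest among them (adjusted p = 0.0502). It was lost without TP07 (adjusted p = 0.151), TP09 (0.0782), TP11 (0.103), TP10 (0.0509), TP12 (0.0528), TP16 (0.0897), TP17 (0.0833) or TP18 (0.0798), and the log2 fold change ran from 0.32 to 0.53 over all alternatives. In the authors' deposited table the FDR of DHH is 0.00629 at 48 h and 0.109 at 96 h.

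The summed Sertoli markers overlapped between all groups. Of their 12 genes 3 were called higher at 48 h (12.3% of loci with 1 symbol were) and 3 higher and 1 lower at 96 h (14.6% and 6.7%). Set against the summed Sertoli markers of the same library, DHH was 4.94 to 6.19 CPM per 1000 CPM of markers in vehicle, 6.98 to 9.84 at 48 h and 6.41 to 8.20 at 96 h. The vehicle range did not overlap the others. The sum itself holds genes that moved in opposite directions. INHA averaged 403.6 CPM in vehicle and 805.5 at 48 h, and CLU 987.3 CPM in vehicle and 774.2 at 96 h. A steady sum is therefore not a steady measure of each marker, and this ratio has no test. Within the 96 h group DHH was highest in TP16 and lowest in TP15, whereas SMO, GAS1, BOC, GLI1, GLI2 and GLI3 were highest in TP15 and lowest in TP16.

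PTCH1, the receptor (chromosome 15, 109279474 to 109355731, minus strand), was at 60.2, 91.3 and 77.8 CPM in vehicle (TP07, TP09, TP11), at 109.0, 115.0 and 103.5 CPM at 48 h (TP08, TP10, TP12) and at 132.3, 115.0, 138.4 and 84.4 CPM at 96 h (TP15 to TP18). The 48 h animals were all above vehicle and close to each other. At 96 h TP18 lay below the highest vehicle animal. The means were 76.4 ± 15.6 CPM in vehicle, 109.2 ± 5.76 CPM at 48 h (SD, n = 3 each) and 117.5 ± 24.2 CPM at 96 h (n = 4). The log2 fold change was 0.52 ± 0.19 at 48 h, which did not pass (edgeR adjusted p = 0.0963), and 0.62 ± 0.18 at 96 h, which did (edgeR adjusted p = 0.0346).

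Both PTCH1 results lie near the threshold. At 48 h PTCH1 passed with DESeq2 (adjusted p = 0.0348), in an edgeR fit of those groups alone (0.0409) and without the 96 h animal TP18 (0.0425). At 96 h it was lost under upper-quartile scaling (adjusted p = 0.0722), in a fit of those groups alone (0.0719), with age as a covariate (0.0904), with age class as a block (0.242) and without both animals over 20 months (0.154). It was also lost without TP07 (0.122), TP11 (0.0915), TP15 (0.0746), TP16 (0.0558) or TP17 (0.0845). Over all alternatives the 96 h log2 fold change ran from 0.46 to 0.77. The authors' deposited table gives PTCH1 an FDR of 0.0856 at 48 h and 0.0149 at 96 h.

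HHIP encodes a membrane protein that binds Hedgehog ligands and keeps them from PTCH1 (chromosome 5, 144494442 to 144594223, plus strand). It rose furthest of the 9 genes, judged by log2 fold change, at both times. It was at 16.2, 35.5 and 38.0 CPM in vehicle (TP07, TP09, TP11), at 72.1, 86.0 and 70.1 CPM at 48 h (TP08, TP10, TP12) and at 91.1, 95.1, 114.2 and 69.5 CPM at 96 h (TP15 to TP18). All 7 gonadotropin animals lay above all vehicle animals. At 48 h HHIP was higher by 1.35 ± 0.29 on the log2 scale (SE, edgeR adjusted p = 0.0145), from a mean of 29.9 ± 11.9 to one of 76.1 ± 8.66 CPM (SD, n = 3 each). At 96 h it was 1.63 ± 0.28 (edgeR adjusted p = 0.00474), with a mean of 92.5 ± 18.3 CPM (n = 4).

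HHIP stayed past the threshold of 0.05 at both times in every alternative fit and without any single animal. The vehicle animal TP07, the oldest at 24 months, was well below the other vehicle animals. Its exons share 53 bases with LOC106998523, a locus on the opposite strand with a mean of 113 counts. Whether reads were counted by strand is not given in the sources used here, and the effect on HHIP was not tested. In the authors' deposited table the FDR of HHIP is 2.82e-05 at 48 h and 1.98e-08 at 96 h.

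HHIP rose more than PTCH1 within the same libraries. The ratio of HHIP to PTCH1 CPM, which does not depend on scaling between libraries, was 0.269, 0.389 and 0.488 in vehicle. It was 0.662 to 0.748 at 48 h and 0.688 to 0.827 at 96 h, with no overlap with vehicle. This ratio was chosen after the values were seen and has no test.

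**Figure D2:**
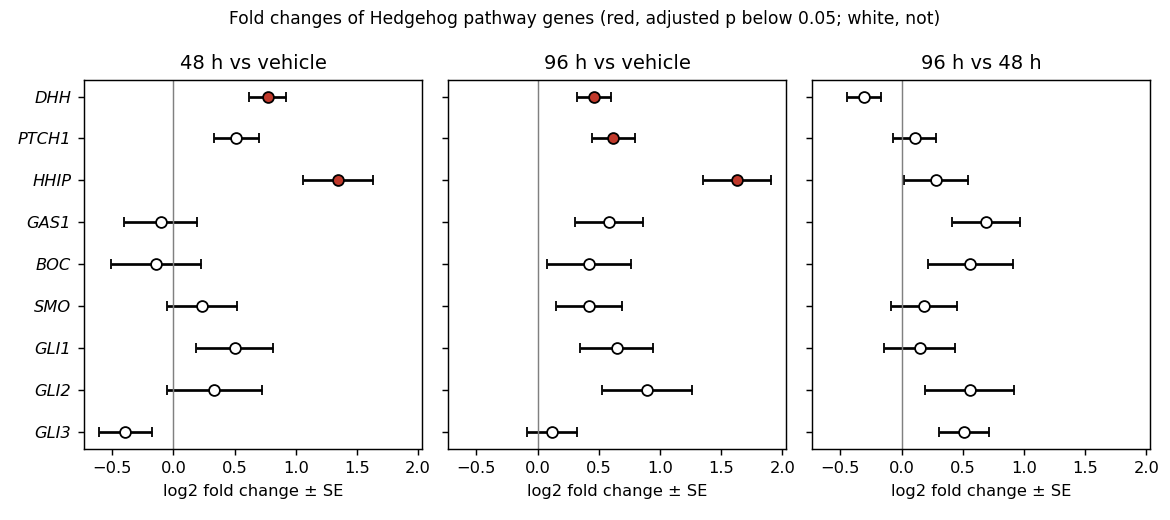
Log2 fold change of each gene in the 3 comparisons (horizontal axis), with bars of 1 SE either side. Red points have an edgeR adjusted p below 0.05 and white points do not. DHH and HHIP are red against vehicle at both times, PTCH1 only at 96 h, and no gene is red between 96 h and 48 h.

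GAS1 and BOC are cell surface co-receptors that present the ligand to PTCH1. GAS1 (chromosome 15, 103153315 to 103156618, minus strand, a single exon) was at 22.3, 23.3 and 19.5 CPM in vehicle, 17.6, 19.8 and 23.1 CPM at 48 h and 43.0, 16.7, 42.8 and 27.9 CPM at 96 h, in the same order of animals. BOC (chromosome 2, 34256572 to 34332943, plus strand) was at 39.8, 79.2 and 54.9 CPM in vehicle, 39.6, 69.0 and 49.3 CPM at 48 h and 114.2, 45.0, 92.1 and 59.4 CPM at 96 h. For both, the groups overlapped, and the 96 h animals TP15 and TP17 stood above TP16 and TP18. Neither passed the test at 48 h, with log2 fold changes of -0.10 ± 0.30 for GAS1 and -0.14 ± 0.37 for BOC (edgeR adjusted p = 0.851 and 0.841). At 96 h the log2 fold changes were 0.59 ± 0.28 and 0.42 ± 0.35 (edgeR adjusted p = 0.169 and 0.421). Without TP16, GAS1 passed at 96 h against vehicle (0.80, adjusted p = 0.0149) and against 48 h (0.91, adjusted p = 0.0423; 0.69 ± 0.28 and adjusted p = 0.207 with all animals). BOC shares 522 exon bases with CFAP44 and SPICE1 on the opposite strand, and the effect on its counts was not tested.

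SMO, the transducer (chromosome 3, 155236902 to 155263247, plus strand), was at 29.4, 51.7 and 38.3 CPM in vehicle, 43.7, 57.2 and 39.6 CPM at 48 h and 73.7, 37.8, 61.8 and 39.6 CPM at 96 h. The groups overlapped in both comparisons with vehicle. Its log2 fold changes were 0.23 ± 0.29 and 0.42 ± 0.27 (edgeR adjusted p = 0.635 and 0.301). The vehicle and 48 h groups hold animals of like age (TP07 and TP08 over 20 months, TP09 and TP10 at 14, TP11 and TP12 at 15 months), although the labels do not pair them. Within each age class the 48 h animal was higher than the vehicle animal for DHH, PTCH1, HHIP, SMO and GLI1. It was lower for GLI3 and BOC, while GLI2 and GAS1 went both ways. The share of all loci with such an order was not counted. Some of these gaps were very small. BOC was at 39.8 CPM in TP07 and 39.6 in TP08, and SMO at 38.3 CPM in TP11 and 39.6 in TP12. With age class as a block the 48 h log2 fold changes were 0.25 for SMO, 0.60 for GLI1 and -0.12 for BOC, and none passed (edgeR adjusted p = 0.559, 0.212 and 0.831).

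The GLI transcription factors carry the signal to the genome. GLI1, an activator and itself a target (chromosome 11, 56253741 to 56266120, plus strand), was at 12.2, 32.9 and 23.1 CPM in vehicle, 32.7, 34.8 and 29.1 CPM at 48 h and 43.6, 26.7, 42.8 and 29.4 CPM at 96 h. The vehicle animals spanned a wide range, with a coefficient of variation of 45.6%. The log2 fold changes were 0.50 ± 0.31 at 48 h and 0.65 ± 0.30 at 96 h, and neither passed (edgeR adjusted p = 0.329 and 0.154). Without TP09, the vehicle animal with the highest level, GLI1 passed at 96 h (1.01, adjusted p = 0.0496). GLI1 overlaps ARHGAP9 on the opposite strand by 15 exon bases.

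GLI2, the main activating GLI protein downstream of SMO (chromosome 12, 10104876 to 10373879, minus strand), was at 5.45, 11.5 and 7.14 CPM in vehicle, 9.27, 10.7 and 10.4 CPM at 48 h and 21.5, 7.63, 20.04 and 10.6 CPM at 96 h. TP15 and TP17 stood apart from every other animal, and TP16 and TP18 lay within the vehicle range. The log2 fold change was 0.34 ± 0.39 at 48 h (edgeR adjusted p = 0.612) and 0.89 ± 0.37 at 96 h (edgeR adjusted p = 0.117). At 96 h GLI2 passed with DESeq2 (adjusted p = 0.0461) and without TP16 (1.10, adjusted p = 0.0384).

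GLI3, which acts mainly as a repressor when the signal is off (chromosome 3, 66548426 to 66829909, plus strand), was at 23.1, 29.8 and 25.7 CPM in vehicle, 18.4, 19.2 and 22.3 CPM at 48 h and 39.3, 21.8, 30.9 and 21.9 CPM at 96 h. All 48 h animals were below all vehicle animals. It was the only member separated in that direction, which 18% of loci were at 48 h and 14.9% at 96 h. The difference did not pass the test (log2 fold change -0.39 ± 0.22, edgeR adjusted p = 0.264). At 96 h the log2 fold change was 0.12 ± 0.20 (edgeR adjusted p = 0.709), and it was -0.08 without TP15 and -0.04 under upper-quartile scaling. Between 96 h and 48 h GLI3 stood 0.51 ± 0.20 higher (edgeR adjusted p = 0.198). No member separated completely between those groups in either direction, as 7.93% of loci did upward and 8.61% downward.

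PTCH1 and GLI3 moved apart within libraries at 48 h. The ratio of PTCH1 to GLI3 CPM was 2.61 to 3.06 in vehicle, 4.64 to 5.98 at 48 h and 3.37 to 5.28 at 96 h, and the vehicle range did not overlap either of the others. The ratio of GLI1 to GLI3 was 0.528 to 1.10, 1.30 to 1.81 and 1.11 to 1.39 in the same order. These ratios were also chosen after the values were seen and have no test.

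Per kilobase of merged exons, a scale that takes account of length, GLI2 and GLI3 were the lowest 2 of the 9 in each group. In vehicle the order was BOC (9.23 CPM per kb), SMO (8.73), GAS1 (6.57), PTCH1 (6.21), DHH (5.63), GLI1 (5.29), HHIP (2.90), GLI3 (1.26) and GLI2 (1.11). The only neighbours in that order whose libraries did not overlap were HHIP and GLI3. At 48 h the order was SMO (10.3), DHH (9.60), PTCH1 (8.87), BOC (8.38), GLI1 (7.49), HHIP (7.39), GAS1 (6.11), GLI2 (1.39) and GLI3 (0.964). GAS1 and GLI2, and GLI2 and GLI3, were separated there. At 96 h it was BOC (12.4), SMO (11.7), GAS1 (9.86), PTCH1 (9.55), HHIP (8.98), GLI1 (8.30), DHH (7.74), GLI2 (2.05) and GLI3 (1.37), and only DHH and GLI2 were separated neighbours. On this scale HHIP thus stood below GLI1 in all 3 vehicle libraries and above it in 2 of 4 libraries at 96 h. The scale rests on the merged exons of all models of a gene, which can exceed a single transcript. That of GLI3 was the longest of the 9, at 20723 bp from 9 models. Without division by length GLI3 averaged 26.2 CPM in vehicle, above GLI1 (22.7), GAS1 (21.7), DHH (17.1) and GLI2 (8.04). At 48 h GLI2 averaged 10.1 CPM and GLI3 19.97 CPM, the reverse of their order per length. The ranks and the gaps between neighbours depend on these lengths.

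**Figure D3:**
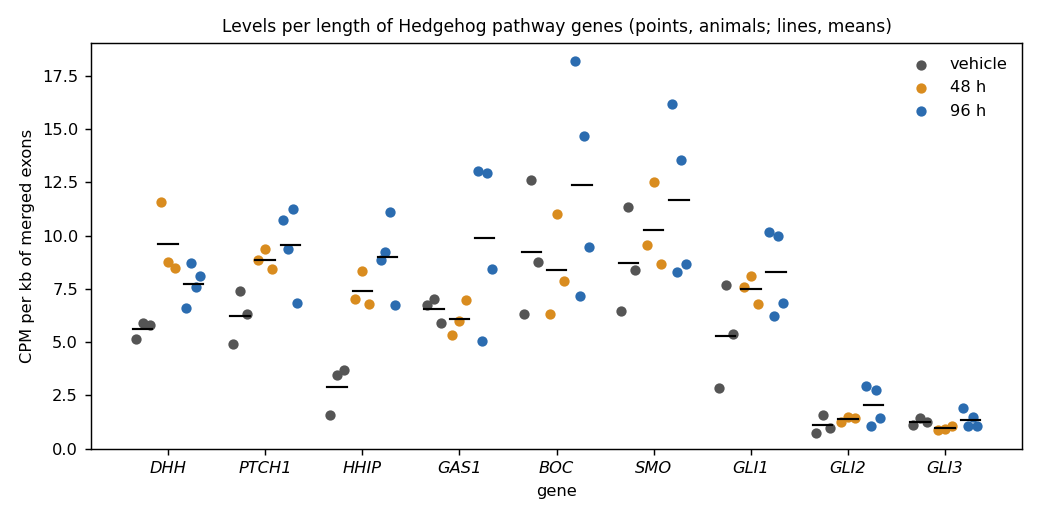
Levels per length (vertical axis, CPM per kilobase of merged exons, from 0) of the 9 genes in vehicle, 48 h and 96 h libraries. Points are animals and lines are group means. Lengths are those of the merged exons of all transcript models of a gene, 20723 bp for GLI3. GLI2 and GLI3 stay below 3 CPM per kb in every animal, and HHIP shifts from a mean of 2.90 in vehicle to 7.39 at 48 h and 8.98 at 96 h.

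The members did not vary independently among animals. At 96 h TP15 and TP17 had the 2 highest levels of 7 of the 9 genes, the exceptions being DHH and HHIP. In vehicle TP07 had the lowest level of 8 genes and TP09 the highest of 8. Measured as log2 CPM, 9 of 9 genes were above the vehicle mean in TP15 and TP17, 8 in TP18 and 4 in TP16. The same count was 6, 7 and 7 in the 48 h animals TP08, TP10 and TP12, and in the vehicle animals it was 1 in TP07, 9 in TP09 and 4 in TP11. Over the 10 libraries Pearson's r of log2 CPM was above 0 for 33 of 36 pairs of members and ran from -0.57 to 0.92, as a description of libraries that share groups. The highest were between PTCH1 and HHIP (0.92, and 0.82 after subtraction of group means) and between SMO and GLI2 (0.92 both ways). After subtraction the highest was between SMO and BOC (0.95). Between DHH and HHIP it was 0.70, and 0.17 after subtraction of group means.

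The stroma of the same libraries moved along with several members. The list of Leydig progenitor and stromal markers (12 genes, among them PDGFRA, NR2F2, TCF21, DCN, LUM, DLK1, COL1A1, COL3A1, NES, THY1 and VIM) summed to 3339, 6144 and 5498 CPM in vehicle (TP07, TP09, TP11), 5406, 8733 and 6534 CPM at 48 h and 18750, 7714, 17260 and 8990 CPM at 96 h. TP07 was the lowest of all animals, and TP15 and TP17 were the highest. Of the 12 markers 2 were called higher at 48 h (16.7%, beside 12.3% of loci with 1 symbol) and 7 at 96 h (58.3%, beside 14.6%), with none lower. The collagens COL1A1 and COL3A1 made up 32.1% to 73.9% of that sum. The other 10 markers summed to 2266, 2999 and 2572 CPM, to 2430, 3085 and 2524 CPM, and to 4904, 2710, 5583 and 3513 CPM in the same order. Peritubular markers (9 genes) summed to 698.4 to 828.5 CPM in vehicle, 1062 to 1461 at 48 h and 950.1 to 1779 at 96 h, macrophage markers (10 genes) to 103 to 215.6, 167.7 to 272.4 and 207.1 to 399.6 CPM, and endothelial markers (9 genes) to 70.6 to 109.0, 70.1 to 145.6 and 59.9 to 138.4 CPM. Schwann cell markers (6 genes) summed to 45.3 to 74.9, 154.2 to 243.7 and 186.0 to 259.2 CPM, while SOX10, a transcription factor that defines these cells, stayed at or below 2.704 CPM in every animal. The part of these lists in the members' changes was not tested.

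Set against the 10 stromal markers without the collagens, HHIP was 7.16 to 14.8 CPM per 1000 CPM in vehicle, 27.8 to 29.7 at 48 h and 18.6 to 35.1 at 96 h, so that the ranges stayed apart from vehicle. Against all 12 markers it was 4.86 to 6.91, 9.84 to 13.3 and 4.86 to 12.3, which overlapped vehicle at 96 h. PTCH1 per 1000 CPM of the 10 markers was 26.6 to 30.4 in vehicle, 37.3 to 44.9 at 48 h and 24.0 to 42.4 at 96 h. At 96 h this ratio was within or below the vehicle range in TP15, TP17 and TP18 and above it in TP16 alone. Against all 12 markers PTCH1 was 14.2 to 18.03 in vehicle, 13.2 to 20.2 at 48 h, which overlapped, and 7.06 to 14.9 at 96 h, below every vehicle animal in TP15, TP17 and TP18.

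**Figure D4:**
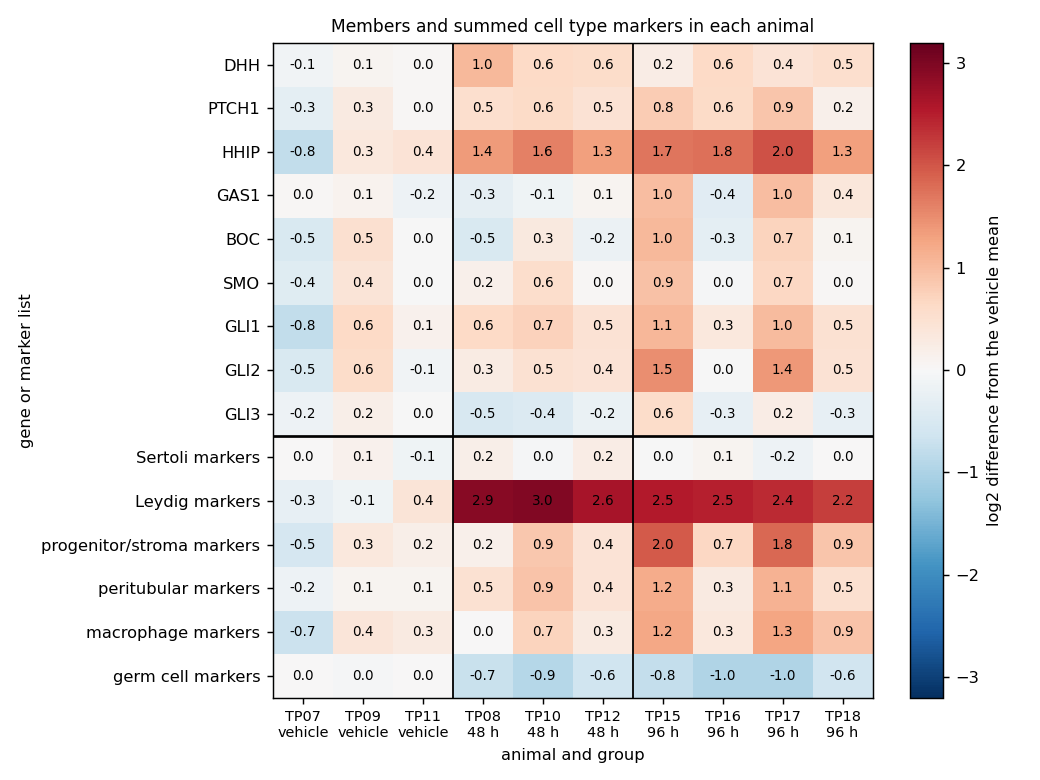
Log2 difference of each animal from the vehicle mean (colour and number in each cell) for the 9 genes above the black line and for summed marker lists below it. Columns are animals by group. Within the 96 h group TP15 and TP17 are highest for 7 of the 9 genes and for the progenitor and stroma, peritubular and macrophage lists, while the Sertoli list stays near 0 in all animals.

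The other genes of the pathway were followed in 5 lists, each counting only genes with a locus of their own, 80 genes in all. At 48 h 10 of the 80 were called higher and 3 lower, and at 96 h 15 higher and 3 lower. At 48 h these shares (12.5% and 3.75%) were near those of all loci with 1 symbol (12.3% and 3.25%), and at 96 h they were 18.8% and 3.75% beside 14.6% and 6.7%. The genes named below are therefore given for their own values, and nothing is read from the number called. The median log2 fold change was 0.03 at 48 h and 0.18 at 96 h. The numbers fell under several settings, to 2 higher and 0 lower at 48 h and 7 and 0 at 96 h without both animals over 20 months. Single omissions also lowered them at 48 h, to 5 higher without TP09, TP08 or TP12 and 6 without TP07, TP11 or TP10, and at 96 h to 8 without TP07 and 7 without TP11. Genes that fell at 48 h numbered 1 without TP07, TP09, TP11 or TP12 and 0 without TP08 or TP10, and at 96 h 1 without TP07. In the gene by gene values that follow, BMP4, SNAI2 and SFRP1 were named after their values were seen.

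Ligand processing and release had 6 measured genes. SCUBE1 and SCUBE2, secreted proteins that help free Hedgehog from the cell that makes it, moved in opposite directions at 96 h. SCUBE1 averaged 4.44 CPM in vehicle and 9.82 CPM at 96 h, which is 1.14 ± 0.26 on the log2 scale (edgeR adjusted p = 0.0137). SCUBE2 fell (-0.91 ± 0.22 on the log2 scale, edgeR adjusted p = 0.0168), and every 96 h animal was below every vehicle animal, at 1.84 to 2.75 against 3.72 to 4.82 CPM. No gene of this list passed at 48 h.

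Among 6 measured surface proteins, GPC5, a glypican (heparan sulfate proteoglycan of the cell surface), fell at 48 h (-0.82 ± 0.22 on the log2 scale, edgeR adjusted p = 0.0341). It was 17.03 to 17.7 CPM in those animals and 27.5 to 36.7 CPM in vehicle. At 96 h GPC5 split, with TP15 and TP17 at 17.7 and 18.5 CPM and TP16 and TP18 at 31.7 and 29.1 CPM. The co-receptor CDON shares its locus with RPUSD4 and has no value of its own. That locus had log2 fold changes of -0.06 and 0.01 (edgeR adjusted p = 0.702 and 0.97).

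Regulators of the GLI proteins had 26 measured genes, of which 6 were called higher at 48 h and 6 at 96 h (23.1% each, beside 12.3% and 14.6% of loci with 1 symbol), with none lower. DZIP1, a ciliary protein that takes part in GLI regulation, was 47.1 to 56.4 CPM in vehicle, 67.2 to 79.3 at 48 h and 80.6 to 113.6 at 96 h. Its log2 fold changes were 0.55 ± 0.13 and 0.92 ± 0.12 (edgeR adjusted p = 0.018 and 0.000949). Protein kinase A phosphorylates GLI2 and GLI3 and so favours their repressing forms. Its regulatory subunit PRKAR1A rose at 48 h (0.54 ± 0.10, edgeR adjusted p = 0.00669) and at 96 h (0.33 ± 0.10, edgeR adjusted p = 0.0364). Its catalytic subunit PRKACA rose as well (0.83 ± 0.23 and 1.05 ± 0.21, edgeR adjusted p = 0.0356 and 0.0089). These subunits also serve the cAMP signal of the FSH and LH receptors. The casein kinase CSNK1G2 rose at both times (0.47 ± 0.10 and 0.36 ± 0.09, edgeR adjusted p = 0.00966 and 0.0212), and CSNK1D rose at 48 h (0.34 ± 0.09, edgeR adjusted p = 0.0389).

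The cilium list had 23 measured genes, with 3 called higher at 48 h and 2 at 96 h and none lower. These shares, 13% and 8.7%, were near or below those of loci with 1 symbol (12.3% and 14.6%). TMEM107 and TCTN1, proteins of the ciliary transition zone, rose at 48 h by log2 fold changes of 0.66 ± 0.10 and 0.62 ± 0.14 (edgeR adjusted p = 0.0029 and 0.0133). At 96 h the values were 0.45 ± 0.10 and 0.63 ± 0.13 (edgeR adjusted p = 0.012 and 0.00894). KIF3B, a subunit of the motor that carries cargo into cilia, rose at 48 h (0.42 ± 0.11, edgeR adjusted p = 0.0357).

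Genes reported as Hedgehog targets in other tissues had 20 measured members. At 48 h 1 was called higher and 2 lower (5% and 10%, beside 12.3% and 3.25% of loci with 1 symbol), and at 96 h 5 higher and 2 lower (25% and 10%, beside 14.6% and 6.7%). CCND2, a D-type cyclin, was 226.2 to 278.7 CPM in vehicle, 484.1 to 540.6 at 48 h and 452.1 to 571.6 at 96 h, with log2 fold changes of 0.98 ± 0.11 and 1.00 ± 0.11 (edgeR adjusted p = 0.00079 and 0.000306). FOXM1 and CDC25B, which act in mitosis in any dividing cell, rose at 96 h by 1.82 ± 0.23 and 1.2 ± 0.21 on the log2 scale (edgeR adjusted p = 0.000764 and 0.00374). Both were also higher at 96 h than at 48 h (1.33 ± 0.23 and 1.17 ± 0.21, edgeR adjusted p = 0.0261 and 0.0275), the only 2 of the 80 genes to pass there. Neither call held without TP08, TP10, TP15 or TP17, and 1 of the 2 held without TP18. SNAI2 and SFRP1 also rose at 96 h (1.16 ± 0.27 and 0.72 ± 0.22, edgeR adjusted p = 0.019 and 0.0454). MYCN fell at 96 h (-0.91 ± 0.19, edgeR adjusted p = 0.00961) and PRDM1 at 48 h (-0.95 ± 0.23, edgeR adjusted p = 0.0202). BMP4 fell at both times (-0.97 ± 0.24 and -0.84 ± 0.22, edgeR adjusted p = 0.0227 and 0.0257). The list names a pathway's candidate targets, and several of its members are also cell cycle genes.

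**Figure D5:**
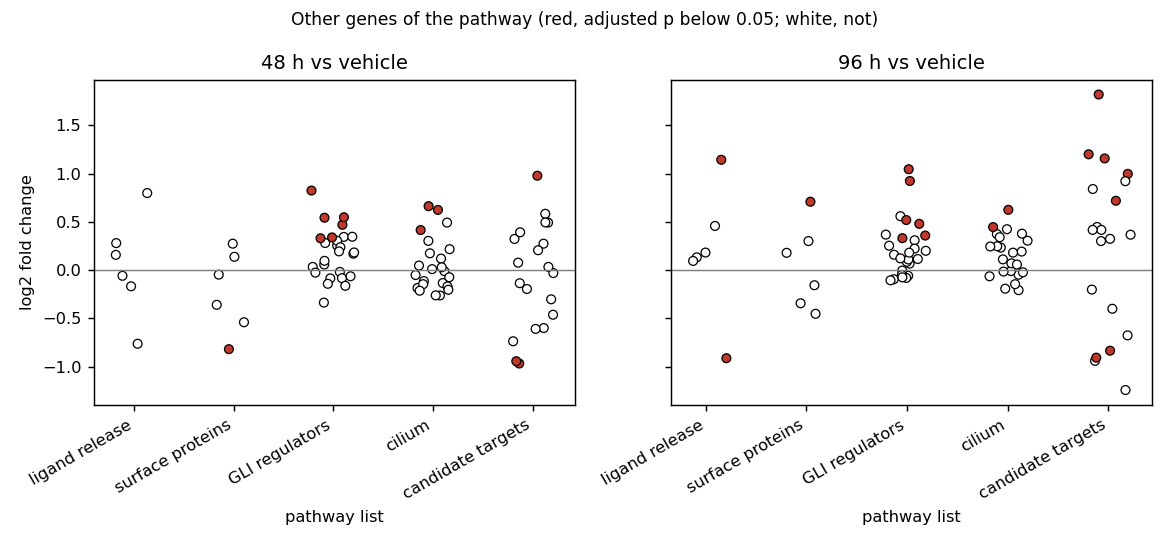
Log2 fold change against vehicle (vertical axis) of each measured gene in the 5 lists of other pathway genes (horizontal axis), at 48 h and at 96 h. Points are genes, spread sideways for legibility, red where the edgeR adjusted p is below 0.05. Most genes lie within 0.5 of 0, and the points reaching furthest from 0 belong to the candidate targets at 96 h.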

How the data were processed

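Per the submitters' processing notes, reads were handled with HTSeq 0.6.1p1, edgeR, cutadapt 1.9.1, Bowtie2 2.2.8, TopHat2 2.1.1 and Cufflinks 2.2.1 on rheMac8. Per the labels, libraries were strand-specific total RNA libraries. The deposited counts are whole numbers, given for loci at 1 CPM or more in at least 3 libraries. The deposited CPM is the count over the library's kept total, checked on the file. The deposited log2 fold changes, p-values and FDR are quoted only as the authors' own.

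Counts of all 10 animals entered 1 fit of group means in edgeR 4.0.16 (R 4.3.3, TMM, robust glmQLFit, glmQLFTest), whose expression filter removed 0 loci. SE came from the F statistic. On simulated counts, 74% of loci changed by a log2 fold of 1 were recovered at 48 h and 78% at 96 h. False calls were 14 of 184 calls at 48 h and 12 of 186 at 96 h. The changes simulated were log2 folds of 1 and 2, so recovery of smaller changes is not known. Chromosome names came from symbols shared with the RefSeq table of T2T-MMU8v2.0. Alternatives covered scaling, filters, exactTest, DESeq2 1.42.0, voom (limma 3.58.1), age, thresholds and omitted animals. Figures used matplotlib 3.10.9. Each library is a separate animal, so p-values measure spread between animals.

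The members and lists were chosen with earlier results of these data known. The rule named all members, up to 5 called genes of each list with the smallest p, SHH, IHH and CDON, and the 3 genes most like DHH, HHIP, PTCH1 and GLI1. A few of these genes are left out of the text.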

Additional observations from a re-analysis of the deposited data

Results flagged for a closer look

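Among 29 values tested for an outlying library in the 96 h group, 3 stood out by Dixon's test, which chance gives in about 1 in 20 groups. The ratio of HHIP to PTCH1 was lowest in TP15 at 0.688, and the highest of the 4 animals was at 0.827. HHIP per 1000 CPM of stromal markers without the collagens was highest in TP16 at 35.1, where the others were at 18.6 to 20.5. PTCH1 per 1000 CPM of the same markers was highest in the same animal at 42.4, where the others were at 24.0 to 27.0. The last pair shares its denominator.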

How the results depend on the processing

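Over 23 alternatives the log2 fold changes of the 9 genes in 3 comparisons gave 621 values, of which 572 kept direction and side of the threshold, 30 fell below it, 9 passed it anew and 10 changed sign. Upper-quartile scaling moved the median of all loci to -0.20 at 48 h and -0.16 at 96 h. No cause of a change was tested.

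Members higher at 48 h (2) were 1 without both animals over 20 months and 1 at a threshold of 0.01, and 2 to 3 without single animals. Members higher at 96 h (3) were 1 under upper-quartile scaling, in a fit of the compared groups alone, with age as a covariate, with age class as a block, without both animals over 20 months and at 0.01, and 1 to 3 without single animals. Between 96 h and 48 h (0) the range without single animals was 0 to 1.

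Other pathway genes higher at 48 h (10) were 6 under upper-quartile scaling, 2 without both animals over 20 months and 4 at 0.01, and 5 to 12 without single animals. Those lower (3) were 7 under upper-quartile scaling, 6 with a CPM of 1 in all libraries, 6 with DESeq2, 0 without both animals over 20 months, 0 at 0.01 and 6 at 0.1, and 0 to 4 without single animals. At 96 h those higher (15) were 8 under upper-quartile scaling, 6 with age class as a block, 7 without both animals over 20 months and 6 at 0.01, and 7 to 17 without single animals. Those lower (3) were 1 with age as a covariate, 0 with age class as a block, 0 without both animals over 20 months and 1 at 0.01, and 1 to 4 without single animals. Between 96 h and 48 h those higher (2) were 0 with age as a covariate, 1 with age class as a block, 0 without both animals over 20 months and 0 at 0.01, and 0 to 2 without single animals. Those lower (0) were 1 with DESeq2.

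Of single genes that changed sign, none was called either way. Between 96 h and 48 h, age class as a block gave log2 fold changes of -0.072 for PTCH1, -0.16 for SMO and -0.249 for GLI1, age as a covariate gave -0.102 for GLI1, and SMO ran from -0.015 to 0.353 without single animals. At 96 h GLI3 was -0.039 under upper-quartile scaling and ran from -0.078 to 0.226 without single animals. At 48 h GAS1 was 0.006 without both animals over 20 months, and BOC ran from -0.382 to 0.152 without single animals. A sum of several rows per gene was not run, since each member has 1 row. No paired analysis was possible because the groups share no animal numbers, and age class as a block stands in for matched ages.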

Other observations

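The genes whose levels followed the members most closely over the 10 libraries, out of 16287 loci with 1 symbol and a mean log2 CPM of at least 0, are given as a description of libraries that share groups. For HHIP they were BHMT2, NGFR and PRPS2, with Pearson's r of log2 CPM of 0.98, 0.97 and 0.97 (0.91, 0.85 and 0.85 after subtraction of group means). NGFR, the p75 neurotrophin receptor, had a mean of 4.30 CPM in vehicle, 14.5 at 48 h and 17.2 at 96 h. For DHH they were NOL9, CRYAA and JTB, with r of 0.98, 0.98 and 0.97 (0.91, 0.94 and 0.90 after subtraction). CRYAA, a lens crystallin, stood at 0.783, 3.37 and 2.29 CPM. For PTCH1 they were SLC7A10, ARSB and LOC106998512, with r of 0.97, 0.96 and 0.96. For GLI1 they were JPH4, PIAS3 and PROK1, with r of 0.97, 0.96 and 0.96. PROK1, an endocrine gland angiogenic factor made by steroid-producing cells, had means of 4.21, 7.77 and 8.68 CPM.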
